A study of Mus musculus with 18 samples.

Results

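The voltage-gated sodium channel subunits measured here are 7 genes, taken by symbol from the deposited comparison table: the pore-forming alpha subunits Scn1a, Scn2a1 (now named Scn2a), Scn3a and Scn8a, and the beta subunits Scn2b, Scn3b and Scn4b. They are 7 of 38250 features counted. Where a symbol had more than 1 identifier, which applied to Scn8a, the identifier with the most reads was used. The samples are 3 cell fractions, sorted by fluorescence from the lateral cortex at embryonic day 14.5 (mouse strain C57BL/6), after meninges and ganglionic eminences had been taken off. Proliferating progenitors (PP) are the Btg2-negative cells, differentiating progenitors (DP) the Btg2-positive cells and Neuron the Tubb3-positive cells. Btg2 encodes an antiproliferative factor that marks progenitors committed to neurogenic division, and Tubb3 a neuronal tubulin. All 3 groups come from embryos with the same genotype, given in the labels as Btg2GFP/Tubb3GFP, whereas the sample titles name RFP for the Btg2 gate and GFP for the neurons. Each group has 3 libraries, each from pooled embryos of different litters and each sequenced in a single-read and a paired-end run whose counts were added. A fraction is a gate on 2 reporters and so can hold several cell types.

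A sodium channel is built around 1 large alpha subunit, a chain of homologous domains that together form the pore, its voltage sensors and its inactivation gate. The beta subunits are small proteins with a single membrane span and an immunoglobulin-like domain outside the cell. They change the gating and surface level of the alpha subunit, and some act in cell adhesion. In rodent brain, Scn3a and Scn2a are known as the alpha subunits of embryonic and early postnatal neurons, Scn8a as the main alpha subunit of mature axon initial segments and nodes, and Scn1a as an alpha subunit of inhibitory neurons in particular.

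The 4 alpha subunit members are close copies of each other in their coding sequence, which matters for how reads are assigned. Between the longest open reading frames of their GENCODE transcripts, 84.3% of aligned bases were identical for Scn2a1 and Scn3a, 83.0% for Scn1a and Scn2a1, 81.7% for Scn1a and Scn3a, and 74.7% to 75.1% for Scn8a with the others. Over whole transcripts, runs of 50 bases present in a second member made up at most 8.4%, for runs of Scn2a1 found in Scn3a. With Scn8a this share was at most 0.0706%, and none was shared between the 3 beta subunits. Reads from such runs cannot be assigned to 1 gene by sequence, and in DP, Scn2a1 had 1.8 CPM where Scn3a had 28.2. No source used here says how the counting treated such reads.

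Start regions were available in the RefSeq table for 5 of the 7 members, as 7 windows of 300 bases (250 before and 50 after an annotated start, GRCm38.p6). The 3 shown are those of the member with the highest level in progenitors and of a pair of members that were low there. Capitals mark CG dinucleotides.
Scn8a, first start, chr15:100870395-100870694, plus strand: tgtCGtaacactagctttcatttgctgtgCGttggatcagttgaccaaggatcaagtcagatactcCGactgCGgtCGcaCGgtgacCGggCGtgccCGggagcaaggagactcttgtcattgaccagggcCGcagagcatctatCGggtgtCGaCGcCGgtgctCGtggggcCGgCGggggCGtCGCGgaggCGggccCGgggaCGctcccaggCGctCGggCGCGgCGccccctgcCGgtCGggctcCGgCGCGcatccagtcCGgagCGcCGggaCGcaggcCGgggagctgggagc
Scn1a, chr2:66440788-66441087, minus strand: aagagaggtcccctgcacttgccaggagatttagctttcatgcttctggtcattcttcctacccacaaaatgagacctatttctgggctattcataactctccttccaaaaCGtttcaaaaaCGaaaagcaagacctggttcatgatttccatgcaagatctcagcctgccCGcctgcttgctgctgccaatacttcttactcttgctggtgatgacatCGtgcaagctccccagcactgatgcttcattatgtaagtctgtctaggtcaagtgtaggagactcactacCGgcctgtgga
Scn2a1, second start, chr2:65668436-65668735, plus strand: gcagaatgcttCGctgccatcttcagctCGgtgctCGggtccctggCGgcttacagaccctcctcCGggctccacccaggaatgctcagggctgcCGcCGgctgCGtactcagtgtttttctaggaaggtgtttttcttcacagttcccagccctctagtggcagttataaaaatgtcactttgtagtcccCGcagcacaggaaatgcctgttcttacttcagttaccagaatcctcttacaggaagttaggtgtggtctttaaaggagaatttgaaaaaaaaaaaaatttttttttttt
The first Scn8a window holds 38 CG dinucleotides and 70.0% G or C, more CG than 95% of 32851 windows, whose median is 7 CG and 52.7% G or C. The Scn1a window holds 5 CG, the second Scn2a1 window 9, the first Scn2a1 window 3, the Scn2b window 2 and the second Scn8a window 12. The Scn4b window holds 26 CG, although Scn4b had the lowest level of the 7 in every group. Of 5 motifs searched on both strands, TATAAA was found once, in the second Scn2a1 window (13.6% of all windows hold it), and GGACAG, the right part of the RE1 silencer element, once, in the second Scn8a window (22.2%). The E-boxes CAGCTG (16.3%) and CAGATG (17.2%) and the GC box GGGCGG (35.7%) were in none of the 7 windows. The matches did not overlap another motif.

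Library totals ran from 34337209 to 55935128 counts. Levels are given as CPM, counts scaled to a common library total, as mean ± SD over 3 libraries, and levels of different genes are compared per kb of exon. A gene is called where edgeR's quasi-likelihood test gave a Benjamini-Hochberg adjusted p under 0.05 over 18627 features, and all 7 members were among those. Marker genes followed the labels. The intermediate progenitor markers include Btg2, the gene that defines the DP gate, so that list is not independent of the sort. Btg2 had 445 ± 67.6 CPM in PP, 888 ± 251 in DP and 169 ± 22.2 in Neuron. The summed level of 8 radial glia markers was 5400 to 6320 CPM in PP, 2490 to 3630 in DP and 298 to 380 in Neuron, that of 5 intermediate progenitor markers 1250 to 1280, 2690 to 3960 and 569 to 627 along the same series, and that of 6 projection neuron markers 90.1 to 177, 858 to 1230 and 4500 to 4640. Markers of other cells were present as well. Red blood cell markers summed to 8360 to 15300 CPM in PP, 17.4 to 118 in DP and 9.04 to 13.5 in Neuron. Interneuron markers summed to 5.24 to 52.2 CPM in PP, 28.9 to 154.96 in DP and 421 to 454 in Neuron, and Cajal-Retzius markers to 3.72 to 6.85, 45.3 to 56 and 814 to 929. Markers of endothelial cells, pericytes and microglia summed to at most 47.4 CPM in any library, and those of oligodendrocyte precursors to at most 16.5, with no read of Sox10 in Neuron. In these bulk samples, more cells of a type and more RNA per cell cannot be told apart.

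All 7 members had higher levels in Neuron than in PP, but they reached them by different routes. Scn3a, Scn1a, Scn3b, Scn8a and Scn4b were already higher in DP than in PP. Scn2a1 and Scn2b were not called between DP and PP and were higher in Neuron than in DP. Scn8a had the highest level per kb in both progenitor fractions, and Scn3b had the highest in Neuron. The number of members called higher was 5 of 7 in DP against PP, where 41.4% of all features were called and 21.3% were called higher. It was 6 of 7 in Neuron against DP (67.3% of features called, 33.1% higher) and 7 of 7 in Neuron against PP (75.3% called, 36.7% higher). No member was called lower, beside 20.2%, 34.2% and 38.6% of all features in these comparisons. The median log2 fold change of the 7 was 1.86, 2.46 and 4.84 in these comparisons, beside -0.02, -0.04 and -0.04 over all features. The first and the second of these comparisons share the DP libraries. Groups without overlap were common among all features, at 49.7% in DP against PP, 72.4% in Neuron against DP and 78.6% in Neuron against PP.

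**Figure D1:**
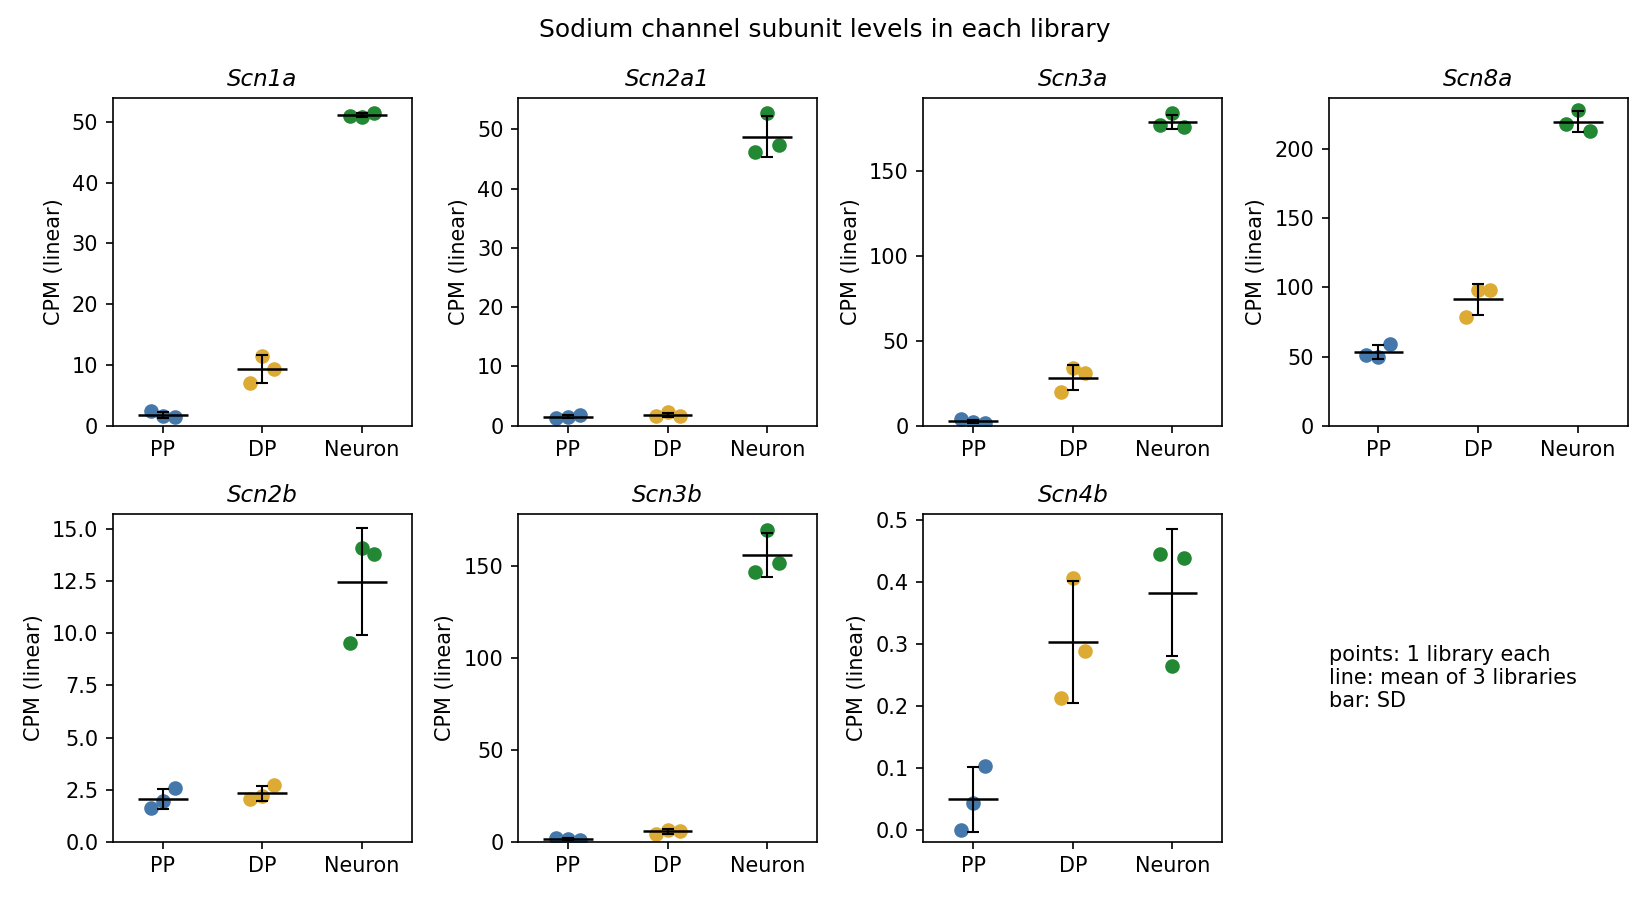
Level of each sodium channel subunit in CPM (linear vertical axis, its own range per gene) in the 3 libraries of PP, DP and Neuron; points are libraries, lines means and bars SD. Scn3a, Scn1a, Scn8a and Scn3b have separate levels in all 3 groups, whereas Scn2a1 and Scn2b overlap between DP and PP, and Scn4b overlaps between Neuron and DP.

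Scn3a, the alpha subunit known for embryonic neurons, had the largest change among the alpha members relative to PP, both in DP and in Neuron. Scn2a1 changed more in Neuron against DP. The Scn3a level was 3.68, 2.24 and 1.6 CPM in the PP libraries, 19.8, 33.8 and 31.0 in the DP libraries and 177, 184 and 176 in the Neuron libraries. No library of one group reached the range of another. The fitted fold over PP was 11.5 in DP (log2 3.52, SE 0.256, adjusted p = 1.35e-06, edgeR) and 72.9 in Neuron, and the fold of Neuron over DP was 6.33 (log2 2.66, SE 0.216, adjusted p = 4.61e-07, edgeR). The gene lies on chromosome 2, 65295175 to 65405684 (mm9, minus strand), with 12579 bases of exon.

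Scn1a had 2.39, 1.6 and 1.42 CPM in the PP libraries, 6.95, 11.5 and 9.38 in the DP libraries and 51.0, 50.8 and 51.4 in the Neuron libraries. Relative to the mean, its 3 Neuron libraries were the closest together of any member in any group, at 51.0 ± 0.298 CPM, a coefficient of variation of 0.584%. The fold of DP over PP was 5.23 (log2 2.39, SE 0.206, adjusted p = 4.56e-06, edgeR) and that of Neuron over DP 5.48 (log2 2.46, SE 0.177, adjusted p = 1.63e-07, edgeR). Scn1a lies at 66108838 to 66278897 on chromosome 2 (mm9, minus strand).

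Scn2a1 was the alpha member whose level was lowest in DP and the only alpha member not called between DP and PP. It had 1.37, 1.47 and 1.75 CPM in the PP libraries, 1.55, 2.27 and 1.59 in the DP libraries and 46.2, 52.7 and 47.4 in the Neuron libraries. The DP and PP libraries overlapped, with 249 reads in DP and 205 in PP. The log2 fold change in DP against PP was 0.24 (95% interval -0.13 to 0.61, adjusted p = 0.279, edgeR). In Neuron against DP it was 4.74 (SE 0.149, adjusted p = 2.5e-10, edgeR), a 26.7-fold higher level. Scn2a1 lies at 65458914 to 65605504 on chromosome 2 (mm9, plus strand), between Scn3a and Scn1a.

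Scn8a was the most abundant alpha member throughout. It had 51.2, 49.9 and 58.9 CPM in the PP libraries, 78.5, 98.1 and 97.9 in the DP libraries and 218, 228 and 213 in the Neuron libraries. The groups did not overlap, and the steps were smaller than those of the other alpha members where these were called: the fold of DP over PP was 1.72 (log2 0.78, SE 0.0955, adjusted p = 6.16e-05, edgeR) and that of Neuron over DP 2.40 (log2 1.26, SE 0.0954, adjusted p = 2.48e-07, edgeR). Scn8a lies on chromosome 15 (100785829 to 100876360, mm9, plus strand). The second identifier with this symbol is a feature of 3 exon blocks and 1072 bases upstream of the first, at 100763860 to 100771229, with 1478 reads against 48355. Its level was 2.60 ± 0.382 CPM in PP, 3.85 ± 0.330 in DP and 4.63 ± 0.735 in Neuron. In DP against PP it was called higher (log2 0.57, adjusted p = 0.0202, edgeR) and not called in Neuron against DP (log2 0.27, 95% interval -0.10 to 0.64, adjusted p = 0.18, edgeR).

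Scn3b, a beta subunit that binds the alpha subunit without a covalent bond, had the largest change of all members in Neuron against PP, whereas in DP against PP the changes of Scn3a, Scn4b and Scn1a were larger. It had 2.34, 1.6 and 0.966 CPM in the PP libraries, 4.45, 6.76 and 6.10 in the DP libraries and 147, 170 and 152 in the Neuron libraries. All DP libraries lay above all PP libraries, and all Neuron libraries were far above both. The fitted fold over PP was 3.63 in DP (log2 1.86, SE 0.239, adjusted p = 8.86e-05, edgeR) and 97.8 in Neuron, and the fold of Neuron over DP was 27 (log2 4.75, SE 0.206, adjusted p = 2.28e-09, edgeR). It lies on chromosome 9 (40076801 to 40099203, mm9, plus strand).

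Scn2b, a beta subunit linked to the alpha subunit by a disulfide bond, had 1.61, 1.96 and 2.57 CPM in the PP libraries, 2.07, 2.21 and 2.75 in the DP libraries and 9.53, 14.1 and 13.8 in the Neuron libraries. The DP and PP libraries overlapped. The log2 fold change in DP against PP was 0.18 (95% interval -0.30 to 0.66, adjusted p = 0.542, edgeR), and in Neuron against DP it was 2.41 (SE 0.207, adjusted p = 7.78e-07, edgeR), a 5.32-fold higher level. Neuron library L224, at 9.53 CPM, lay below the other two.

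Scn4b, also disulfide-linked and known for its part in the resurgent sodium current of mature neurons, was barely detected. It had 0, 2 and 5 reads in the PP libraries, 9, 21 and 12 in the DP libraries and 19, 13 and 17 in the Neuron libraries, 98 reads in all. At these depths 1 read is worth 0.0194 to 0.0268 CPM and 3 reads, the limit that a count of 0 allows, 0.0805 CPM in PP library L222. Levels were 0.0485 ± 0.0516 CPM in PP, 0.303 ± 0.0982 in DP and 0.382 ± 0.102 in Neuron. DP was above PP (log2 2.49, SE 0.602, adjusted p = 0.00617, edgeR), a call that was lost without libraries L355, L356 and L357 (log2 2.07, adjusted p = 0.0974, edgeR). Neuron and DP overlapped, with a log2 fold change of 0.30 (95% interval -0.64 to 1.24, adjusted p = 0.554, edgeR). Scn2b (44925959 to 44938153) and Scn4b (44946520 to 44962235) are neighbours on chromosome 9 (mm9, both on the plus strand), 8.37 kb apart.

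**Figure D2:**
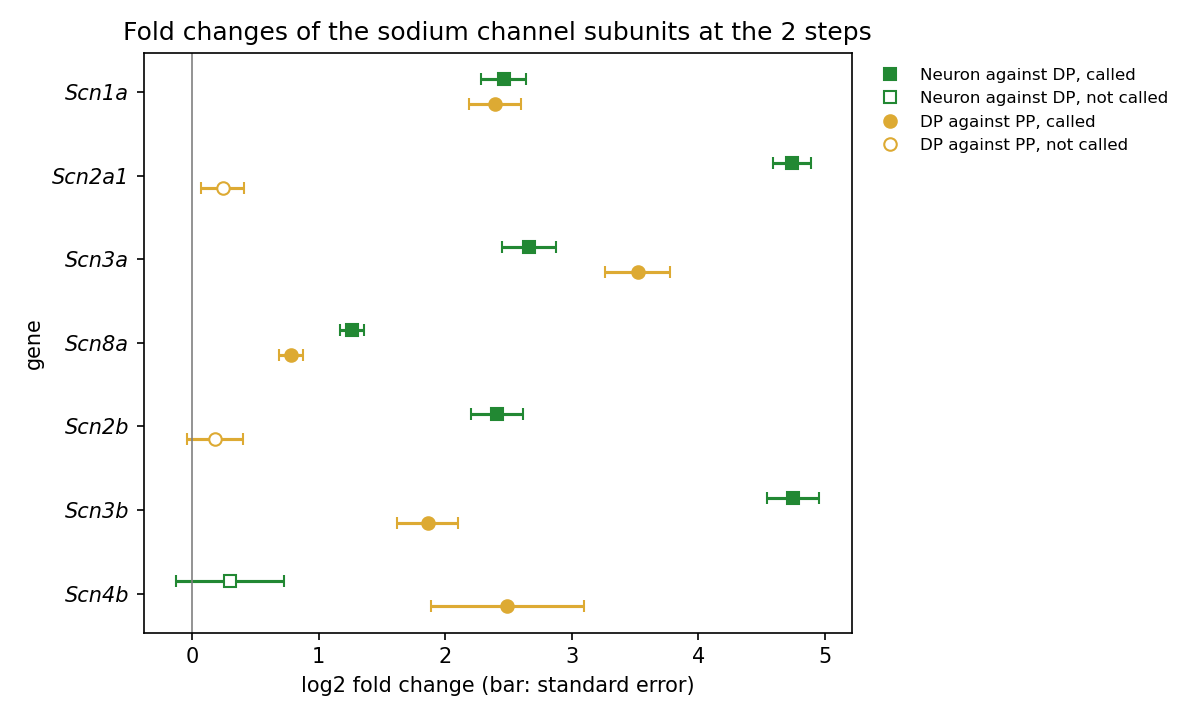
Log2 fold change of each subunit in Neuron against DP (squares) and in DP against PP (circles), with standard errors as bars; filled symbols are called at an adjusted p under 0.05. Scn2a1 and Scn3b have nearly equal changes in Neuron against DP (4.74 and 4.75), whereas in DP against PP Scn2a1 is at 0.24 and Scn3b at 1.86.

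The split of the change over both steps differed between the members. The contrast (Neuron against DP) minus (DP against PP) was positive and called for 4 of 7 members (45.4% of all features were called, 20.5% positive): 4.50 for Scn2a1 (adjusted p = 2.23e-07, edgeR), 2.90 for Scn3b (adjusted p = 7.3e-05), 2.23 for Scn2b (adjusted p = 0.000481) and 0.48 for Scn8a (adjusted p = 0.0322). No member was negative and called, beside 24.9% of all features. The Scn8a call was lost on leaving out PP library L393 (0.40, adjusted p = 0.0572, edgeR), DP library L223 (0.28, adjusted p = 0.144) or Neuron library L357 (0.46, adjusted p = 0.0672). Scn1a was at 0.07 with a 95% interval of -0.66 to 0.79 (adjusted p = 0.89, edgeR), and it turned negative, uncalled, without PP library L222 (-0.17) or DP library L223 (-0.28). Scn3a was at -0.86 (adjusted p = 0.09, edgeR) and was called without PP library L222 (-1.22, adjusted p = 0.0112) or DP library L223 (-1.27, adjusted p = 0.01). Scn4b was at -2.19 (adjusted p = 0.0628, edgeR) and was called without PP library L393 (-3.25, adjusted p = 0.0227).

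Expressed as a share of the Neuron mean, the DP mean was 79.2% for Scn4b, 41.7% for Scn8a, 18.8% for Scn2b, 18.2% for Scn1a, 15.8% for Scn3a, 3.70% for Scn2a1 and 3.69% for Scn3b. The summed markers of projection neurons stood at 23.5% of their Neuron mean in DP, those of interneurons at 21% and those of Cajal-Retzius cells at 5.51%. Single markers differed widely, so these sums are not shares of cells. Projection neuron markers ran from 12.7% (Bcl11b) to 33.8% (Neurod2), interneuron markers from 0.245% (Sst) to 55.9% (Dlx2), and Cajal-Retzius markers from 2.04% (Calb2) to 28.9% (Trp73). Dlx1 and Dlx2 made up most of the interneuron sum in DP, and Reln most of the Cajal-Retzius sum. Neuron marker sums also varied between libraries of a progenitor group. Among the PP libraries, Scn1a, Scn3a and Scn3b were highest in L222 and lowest in L393. The projection neuron markers summed to 177 CPM in L222, 112 in L355 and 90.1 in L393, and the interneuron markers to 52.2, 17.0 and 5.24. Scn2a1, Scn2b, Scn8a and Scn4b were highest in L393. Among the DP libraries, all 7 members were lowest in L223, where the projection neuron markers were also lowest (858 CPM, against 1230 in L356 and 1110 in L394) and the interneuron markers highest (154.96 CPM, against 91.1 and 28.9). The part of these cell types in the levels of the subunits was not tested.

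Per kb of exon, the order of the members changed from group to group. In PP, Scn8a led at 4.82 ± 0.440 CPM per kb, above Scn2b at 0.449 ± 0.106, Scn3b at 0.295 ± 0.124, Scn3a at 0.199 ± 0.0845, Scn2a1 at 0.165 ± 0.0210 and Scn1a at 0.163 ± 0.0466. From Scn2b to Scn1a each neighbour in this order overlapped the next, and Scn4b lay below all at 0.00981 ± 0.0104. In DP, Scn8a led at 8.27 ± 1.02 CPM per kb and Scn3a was next at 2.24 ± 0.589. Scn3b at 1.04 ± 0.215 and Scn1a at 0.837 ± 0.206 overlapped, and Scn2b, Scn2a1 and Scn4b were below at 0.514 ± 0.0786, 0.195 ± 0.0433 and 0.0613 ± 0.0199. In Neuron, no neighbours overlapped: Scn3b had 28.2 ± 2.12 CPM per kb, Scn8a 19.8 ± 0.657, Scn3a 14.2 ± 0.325, Scn2a1 5.27 ± 0.376, Scn1a 4.61 ± 0.0269, Scn2b 2.73 ± 0.557 and Scn4b 0.0774 ± 0.0207.

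The make-up of the 4 alpha subunits, as shares of their summed CPM per kb within a library, does not depend on scaling between libraries. Scn8a took 87.6%, 90.3% and 92.3% of it in the PP libraries, 75.0%, 69.1% and 71.7% in the DP libraries and 45.4%, 45.3% and 44.8% in the Neuron libraries. Scn3a took 5.54%, 3.57% and 2.21% in the PP libraries, 16.6%, 20.9% and 20.0% in the DP libraries and 32.5%, 32.1% and 32.5% in the Neuron libraries. At each step the Scn8a share was lower and the Scn3a share higher than in the group before, with no overlap between groups for either gene. Scn2a1 took 3.09 ± 0.253% in PP, 1.69 ± 0.266% in DP and 12 ± 0.523% in Neuron, and so was lowest in DP. Scn1a took 3.07 ± 0.943% in PP, 7.20 ± 0.786% in DP and 10.5 ± 0.362% in Neuron. In a two-sided exact permutation test of 3 libraries against 3, each of the 12 differences between groups gave p = 0.1, the smallest that this unpaired test can give. The test exchanges libraries freely between groups and takes no account of the pairing by library number.

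**Figure D3:**
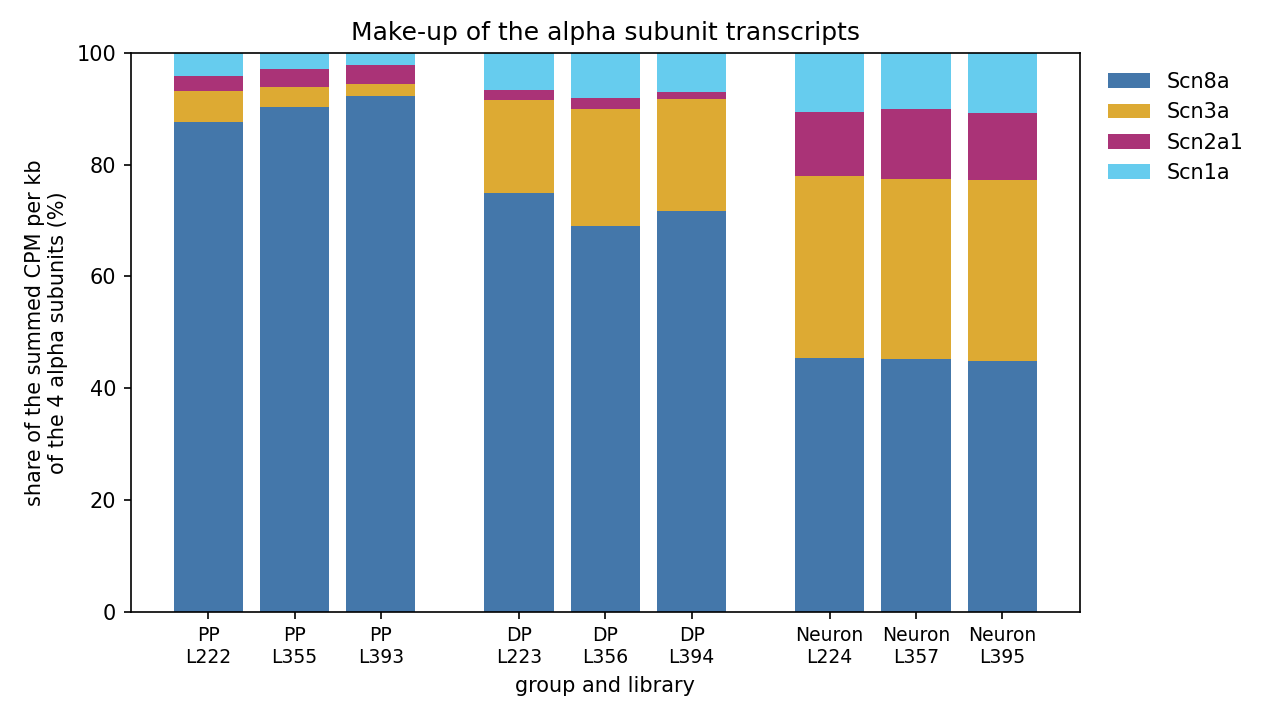
Share of each alpha subunit in the summed CPM per kb of Scn1a, Scn2a1, Scn3a and Scn8a, as stacked bars for each of the 9 libraries (vertical axis in percent from 0 to 100). The Scn8a part is 45.4% or less in every Neuron library and 87.6% or more in every PP library, and the Scn2a1 part is narrowest in the DP libraries.

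The ratio of alpha to beta subunits was lower in Neuron than in either progenitor group. The 4 alpha members summed to 5.34 ± 0.389 CPM per kb in PP, 11.5 ± 1.8 in DP and 43.9 ± 1.29 in Neuron, and the 3 beta members to 0.753 ± 0.0234, 1.62 ± 0.275 and 31.0 ± 2.52. The ratio of the alpha to the beta sum was 6.82, 6.85 and 7.61 in the PP libraries and 7.29, 7.19 and 7 in the DP libraries, which overlapped, and 1.51, 1.35 and 1.41 in the Neuron libraries, which lay below all others. Within the beta subunits, Scn3b was at 0.723 ± 0.443 times the Scn2b level in PP, 2.04 ± 0.417 times in DP and 10.6 ± 1.89 times in Neuron.

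The other sodium channel genes did not move as a block with these 7. Of 11 further subunits and genes of the sodium leak channel, 8 were tested, and 6 were higher and 2 lower in Neuron than in PP, beside 36.7% and 38.6% of all features. In DP against PP, 3 were higher and 3 lower (21.3% and 20.2% of all features), with a median log2 fold change of -0.31 (-0.02 over all features). Scn11a, known from sensory neurons, had 4.73 ± 0.849 CPM in PP, 0.886 ± 0.229 in DP and 0.845 ± 0.174 in Neuron and was called lower in DP against PP (log2 -2.41, adjusted p = 1.15e-05, edgeR). Scn11a was singled out after its values were seen. Scn9a, an alpha subunit of sensory and some central neurons, had 0.211 ± 0.0861 CPM in PP, 0.432 ± 0.132 in DP and 4.89 ± 0.470 in Neuron (log2 4.56 in Neuron against PP, adjusted p = 3.66e-08, edgeR). Of the leak channel complex, the genes with the largest changes in Neuron against PP were Unc79 and Fam155a. Unc79 had 3.15 ± 0.978 CPM in PP, 20.0 ± 5.22 in DP and 182 ± 7.30 in Neuron. Fam155a was 24.2-fold higher in Neuron than in PP, and the other listed genes of the complex changed less. Scn4a, Scn7a and Scn10a were too low to be tested.

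**Figure D4:**
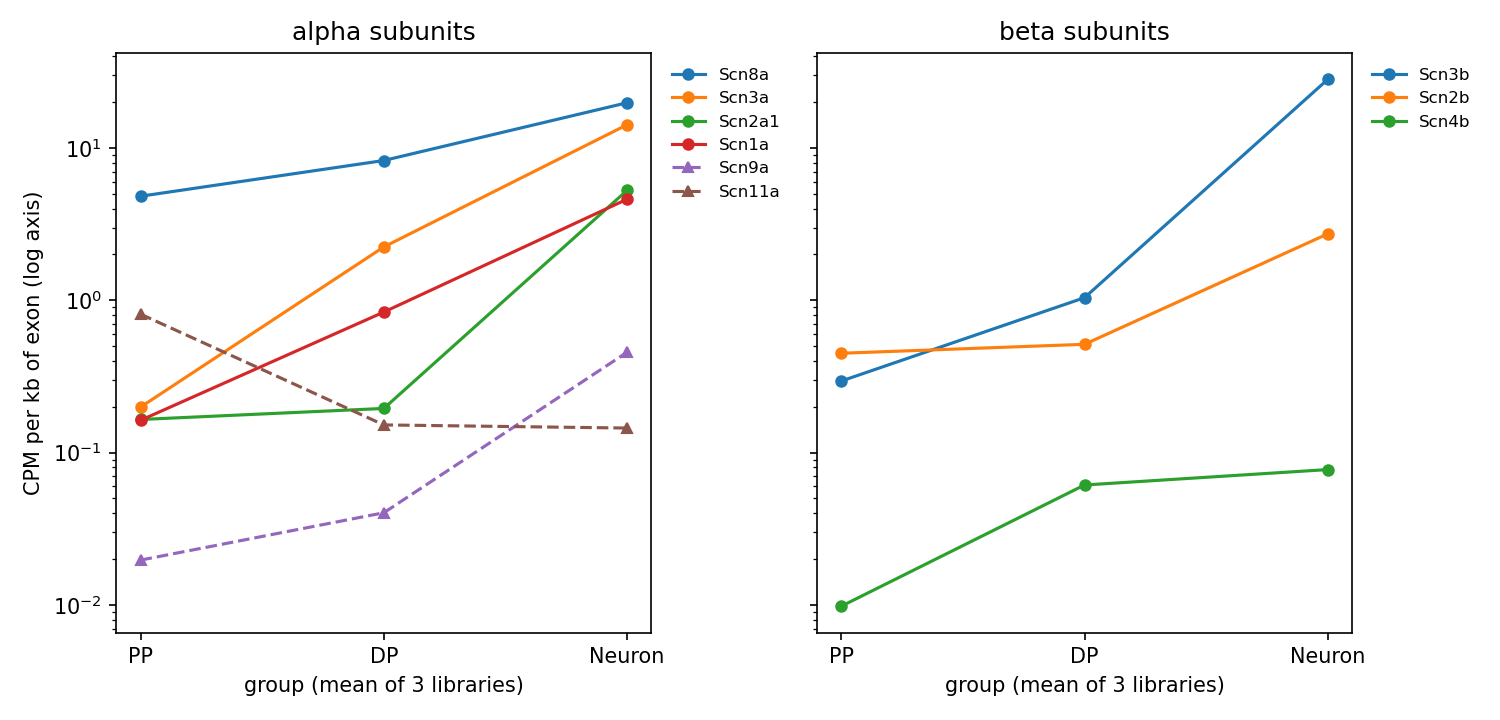
Mean level per kb of exon (log axis) of alpha subunits (left) and beta subunits (right) over PP, DP and Neuron, n = 3 libraries each; circles and solid lines are the 7 members, triangles and broken lines Scn9a and Scn11a. Scn8a is the highest point in PP (4.82) and in DP (8.27), and Scn3b is the highest in Neuron at 28.2.

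Genes that hold sodium channels at the axon initial segment were mostly higher in Neuron. Of 13 scaffold and adhesion genes of the initial segment and node, 12 were higher in Neuron than in PP and 1 was not called, whereas 36.7% of all features were called higher there. The median log2 fold change was 4.20, beside -0.04 over all features. In DP against PP, 8 were higher and 3 lower, beside 21.3% and 20.2% of all features. Cntn2, an adhesion protein of axons, had 26.4 ± 20.6 CPM in PP, 229 ± 47.0 in DP and 5110 ± 226 in Neuron. Ank3, the ankyrin that anchors the channels, had 11.1 ± 3.47 CPM in PP, 74.0 ± 14.2 in DP and 753 ± 53.6 in Neuron. Spnb4, the beta-IV spectrin of that scaffold, had 0.602 ± 0.122 CPM in PP, 1.31 ± 0.0299 in DP and 55.3 ± 9.39 in Neuron. The potassium channel subunit Kcnq3, which binds the same ankyrin, was 124-fold higher in Neuron than in PP (adjusted p = 6.72e-11, edgeR).

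The 4 intracellular FGF homologous factors, which bind the tail of the alpha subunit, split. Fgf14, Fgf11 and Fgf12 were higher in Neuron than in PP, by 8.64-fold, 5.29-fold and 4.33-fold. There, 36.7% of all features were called higher and 38.6% lower. Fgf13 was lower in Neuron than in PP (70.6 ± 8.39 CPM in PP, 28.1 ± 4.04 in DP and 48.7 ± 1.2 in Neuron, log2 -0.54 in Neuron against PP, adjusted p = 0.000816, edgeR). In DP against PP, Fgf11 was higher and the other 3 were lower (21.3% and 20.2% of all features). All 4 were higher in Neuron than in DP, beside 33.1% of all features.

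Of 14 genes for trafficking, ubiquitination, phosphorylation and cleavage of the subunits, 13 were tested, and 8 were higher and 2 lower in Neuron than in PP (36.7% and 38.6% of all features). With both directions together, the called share of this list was near the 75.3% of all features. Nedd4l, a ubiquitin ligase that acts on sodium channels, was 3.77-fold higher in Neuron than in PP, and its relative Nedd4 was 2.68-fold lower (1920 ± 113 CPM in PP, 1780 ± 132 in DP, 715 ± 41.4 in Neuron). Calm2, a calmodulin gene, was 2.65-fold and Psen2, a subunit of the protease that cleaves beta subunits, 2.17-fold higher in Neuron than in PP. The 3 calmodulin genes encode the same protein and their reads may be split.

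Of 14 transcription, RNA processing and translation factors known for sodium channel genes, 9 were higher and 2 lower in Neuron than in PP (36.7% and 38.6% of all features). With both directions together, this called share too was near the 75.3% of all features. The RNA-binding protein Rbfox1 was 130-fold higher, Rbfox3 23.9-fold, the splicing factor Srrm4 11.7-fold and Celf4, an RNA-binding protein of excitatory neurons, 9.68-fold. Their steps differed: Rbfox3 was called in DP against PP (log2 4.36) but not in Neuron against DP (log2 0.22, adjusted p = 0.285, edgeR), whereas Celf4 had 25.9 ± 2.36 CPM in PP, 27.9 ± 2.57 in DP and 251 ± 11.2 in Neuron and was called in Neuron against DP (log2 3.17) but not in DP against PP (log2 0.11, adjusted p = 0.371, edgeR).

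Among 9 sodium pump subunits and sodium-calcium exchangers, 5 were higher and 3 lower in Neuron than in PP, beside 36.7% and 38.6% of all features and 75.3% called in either direction. The exchangers Slc8a3 and Slc8a1 were 28.2-fold and 18.1-fold higher in Neuron than in PP.

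Scn3a, Scn2a1 and Scn1a lie within 984 kb of chromosome 2 (65295175 to 66278897, mm9), and their neighbours there did not share 1 pattern. Csrnp3, a nuclear protein gene between Scn2a1 and Scn1a, had 4.20 ± 1.38 CPM in PP, 37.7 ± 6.64 in DP and 275 ± 6.72 in Neuron, higher at both steps (log2 3.19 in DP against PP, adjusted p = 4.47e-07, and log2 2.87 in Neuron against DP, adjusted p = 2.97e-08, edgeR). Ttc21b, a cilium gene, had 17.5 ± 0.328, 22.5 ± 2.04 and 40.0 ± 2.13 CPM along the same series (log2 0.36 and 0.83, both called). Galnt3, an enzyme of sugar attachment, had 4 reads in PP, 22 in DP and 14 in Neuron and was not tested. The long non-coding RNA Gm13630 overlaps Scn1a on the opposite strand without sharing exon bases, and had 1 read in PP, 22 in DP and 88 in Neuron. Both steps were called higher (log2 3.99 in DP against PP, adjusted p = 0.00227, and 2.05 in Neuron against DP, adjusted p = 0.000467, edgeR). No source used here says whether counting was by strand, so Gm13630 reads and reads of unspliced Scn1a cannot be told apart. The antisense RNAs Gm13595 (opposite Scn3a), Gm13619, Gm13617 and Gm13618 had at most 19 reads each over all libraries, 2 further features had none, and Gm10684, which overlaps Scn2b, had 1.

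**Figure D5:**
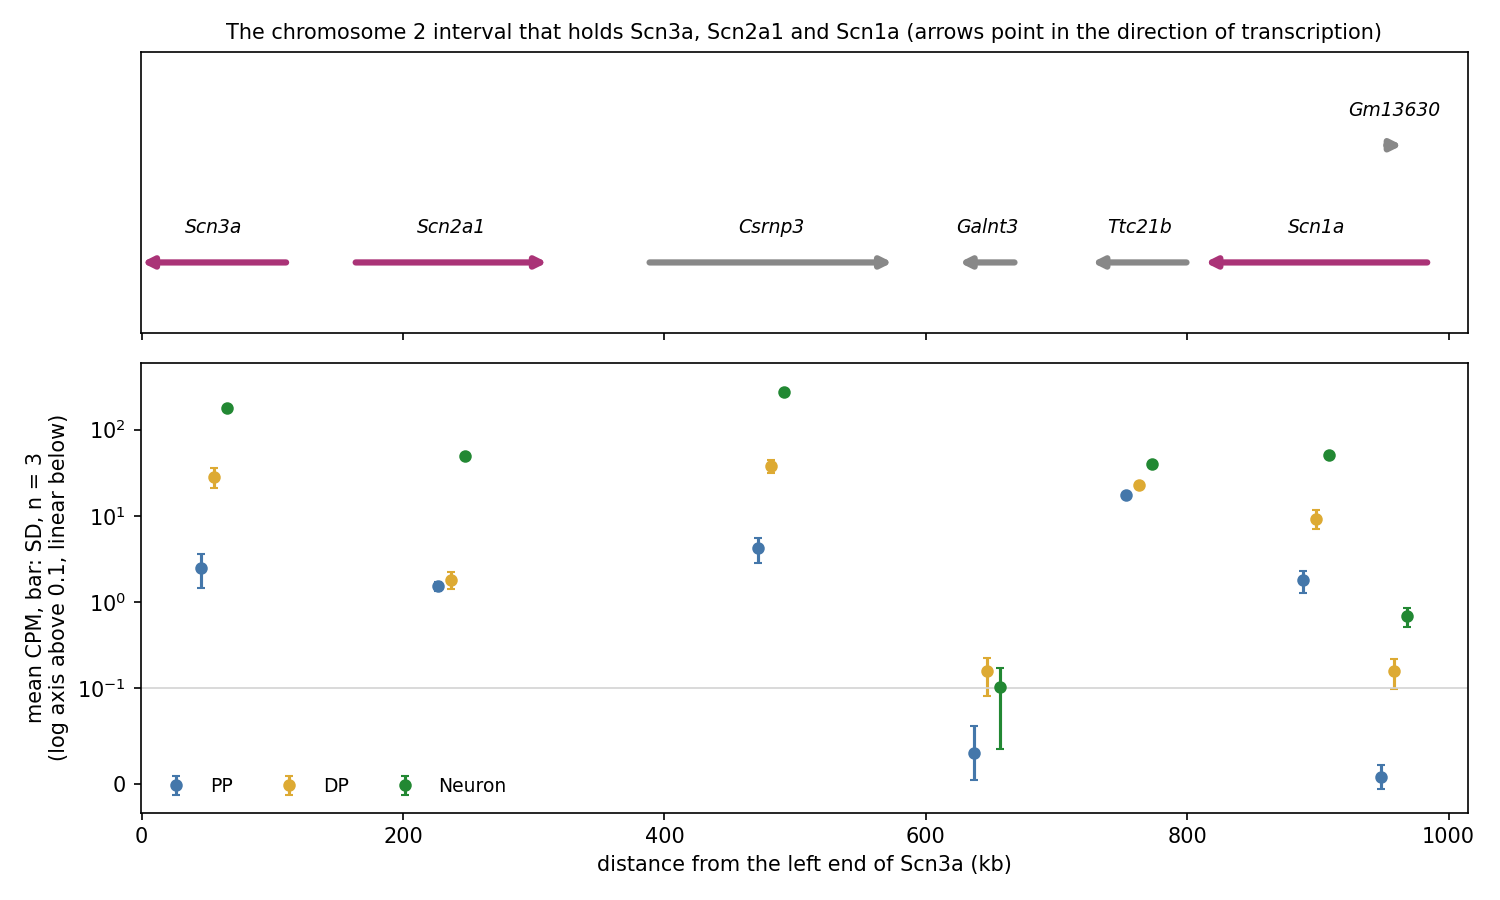
The interval of chromosome 2 with Scn3a, Scn2a1 and Scn1a (top, arrows point in the direction of transcription, purple for sodium channel genes) and the mean CPM of each gene in PP, DP and Neuron with SD, n = 3 (bottom, log axis above 0.1 and linear below). Scn2a1 is the gene of the 3 whose DP and PP points (1.8 and 1.53 CPM) lie together, and Csrnp3 beside it has separate points at 4.20, 37.7 and 275 CPM.

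The genes whose profiles over the 9 libraries were most like those of the members were sought among 14717 protein-coding features, by the root mean square difference of log2 CPM centred on each gene's mean. For Scn1a these were Cdk5r1, an activator of a neuronal kinase (difference 0.0848), Nrsn1 (0.129) and the acid-sensing channel gene Accn2 (0.144). For Scn3a they were Snap25, a protein of vesicle fusion (0.146), Tiam2 (0.164) and Adamts17 (0.171). For Scn3b they were Nmnat2, an enzyme that keeps axons intact (0.149), Iqsec3 (0.163) and Ppp1r14c (0.19). For Scn8a they were Scamp5, a protein of secretory vesicles (0.0745), Nudt8 (0.0748) and Madd (0.0792). For Scn2a1 they were Agap2 (0.193), the receptor gene Npy2r (0.212) and Gm996 (0.228). Npy2r had at most 0.0145 CPM in either progenitor group, so its distance depends on the prior count added before the logarithm, and its fitted log2 change in Neuron against DP was 6.35, beside 4.74 for Scn2a1. For Scn2b they were Tmem150a (0.176), the glutamate receptor gene Gria2 (0.179) and Myc (0.183). Snap25, the nearest to Scn3a, had 2.63 ± 1.28 CPM in PP, 24.8 ± 5.39 in DP and 188 ± 13.2 in Neuron. Between members, the nearest pairs were Scn8a and Scn2b (0.493) and Scn1a and Scn3a (0.622), and the farthest were Scn3b and Scn4b (2.19). Scn4b had 98 reads in all, so its distances also depend on the prior count. Without Scn4b, the farthest were Scn8a and Scn3b (1.99). These distances describe 9 libraries that share 3 groups.

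In the authors' deposited table, the members' log2 fold changes lay close to these. For DP against PP the authors' deposited table gives 3.44 for Scn3a, 2.37 for Scn1a, 0.24 for Scn2a1, 0.78 for Scn8a, 1.83 for Scn3b, 0.18 for Scn2b and 2.34 for Scn4b. For Neuron against DP the authors' deposited table gives 4.76 for both Scn2a1 and Scn3b. In the authors' deposited table, each of the 7 members was on the same side of an adjusted p of 0.05 as in the edgeR fit in both comparisons.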

How the data were processed

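Poly-A RNA of sorted cells was sequenced, per the labels' protocols, and the authors deposited whole-number counts per gene and run on Ensembl release 67, with exon lengths per the file headers. Named in the submitters' processing notes are TopHat2 2.0.10, Bowtie2 2.2.1, featureCounts 1.4.4, DESeq2 1.4.5 and the build mm9, with no role or order. Comparison tables of the authors give, per the file headers, normalised signal values of each library, log2 fold changes, a standard error and test statistic (a score per gene) and p-values. Only the fold changes and adjusted p-values of the members were used from them, beside the gene symbols, gene types (such as protein-coding) and descriptions.

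The counts of both runs of a library were added here. Count columns carry library numbers that no label gives, so columns were tied to groups. CPM scale counts to the library's TMM-adjusted total. Groups were compared with edgeR 4.0.16 (R 4.3.3): filterByExpr, then a quasi-likelihood F test in 1 fit of all 9 libraries without covariates, with p-values adjusted over 18627 features by the Benjamini-Hochberg method and called at 0.05. Standard errors come from the F statistic and intervals from its residual degrees of freedom. DESeq2 1.42.0 was an alternative. The script was tested on simulated counts. Intervals and the limit for a count of 0 cover counting error or the spread between these libraries only.

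Neighbouring library numbers form 3 sets across the groups. The deviations of libraries from their group means correlated at 0.13 to 0.345 across genes within a set (9 pairs) and at -0.319 to 0.0106 between sets (18 pairs). Deviations from a group mean cancel out within the group, so positive values within sets bring negative ones between sets. The ranges are therefore not separate evidence of pairing. On the values within sets, the sets were treated as pairing the libraries, and a fit with the set as a block was an alternative.

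The members and the gene and marker lists were chosen with earlier results of these data known. Beside the members, the text names the genes of the chromosome 2 interval or overlapping a member, the 3 most similar profiles for members with at least 10 CPM in a group, and up to 4 called genes per list with the largest change in Neuron against PP. Map1b of the trafficking list is not analysed here, and some genes of these lists are not reported here. Promoter windows are from RefSeq (GRCm38.p6) and transcripts from GENCODE M21 (GRCm38); coordinates of the counted genes are mm9, and none were converted.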

Additional observations from a re-analysis of the deposited data

How the results depend on the processing

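Of 544 values of single members under other settings, 527 kept their direction and their side of the threshold, and each of 79 counts of members stayed within 1.5 times its value. No setting changed a member's call in Neuron against PP where the member could be tested. Scn4b did not pass the filter in the single-read runs alone, the paired-end runs alone or, for DP against PP, with those 2 groups alone. The direction reversed for Scn4b in Neuron against DP without libraries L222, L223 and L224 (-0.02), and for Scn1a in the contrast of the steps with the paired-end runs alone (-0.06), without PP library L222 (-0.17), without DP library L223 (-0.28) and without L222, L223 and L224 (-0.51), none of them called. Leaving out each library in turn, that contrast ran from -0.28 to 0.44 for Scn1a. In the same contrast Scn3a was called with no filter on low counts (-0.89, adjusted p = 0.0426, edgeR) and without L222, L223 and L224 (-1.61, adjusted p = 0.000264, edgeR). The Scn8a call was also lost without each of the 3 sets (adjusted p = 0.145, 0.0714 and 0.0741, edgeR). The cause was not tested, though leaving out a set removes a library of every group. Leaving out the set L355, L356 and L357 took the features called in DP against PP to 4358, against 7714 with all libraries. Upper-quartile scaling moved the median log2 fold change of all features in Neuron against PP to -0.16, and no member's call changed. None of the 108 alternative share differences reversed. With the library number sets as a replicate block, 5, 6 and 7 members were called in DP against PP, Neuron against DP and Neuron against PP, as without the pairing, 4 were called in the contrast of the steps, and the block changed no call of a member. The lowest levels, of Scn4b in PP, rest on 7 reads.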
